A study of Mus musculus with 2 samples.

Results

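Transcripts of 10 genes were examined, which encode the nuclear receptors for retinoic acid and thyroid hormone and the cellular retinoic acid binding proteins. They were taken by symbol from the 24411 genes counted in the series, and all 10 were found: the retinoic acid receptors (RAR) Rara, Rarb and Rarg, the retinoid X receptors (RXR) Rxra, Rxrb and Rxrg, the thyroid hormone receptors (TR) Thra and Thrb, and the binding proteins (CRABP) Crabp1 and Crabp2. The data came from fresh-frozen mouse brain at embryonic day 16.5. Areas of haematoxylin and eosin stained sections were cut out by laser capture microdissection (LCM) and profiled by bulk RNA-seq. There was 1 library from the subventricular zone (SVZ), a layer near the ventricle where neural progenitors divide, and 1 library from the cortex, where their neurons settle. No genotype, strain or treatment is given in the sources used here, nor the number of embryos behind each library. With 1 library per area there was no replicate check of any difference, and no test between the areas was possible.

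Retinoic acid is made from vitamin A, and thyroid hormone is taken up and activated within the brain. Both enter the nucleus and bind receptors that already sit on DNA. A RAR or a TR pairs with an RXR, and the pair binds a repeat of the half-site AGGTCA. Without hormone the pair holds corepressors on its target genes, and with hormone it exchanges them for coactivators. CRABP1 and CRABP2 are small cytosolic carriers. CRABP2 delivers retinoic acid to the receptors, whereas CRABP1 is mainly tied to its breakdown and storage. In the developing forebrain these pathways take part in neurogenesis, migration and the maturation of neurons.

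The libraries held 51435667 (SVZ) and 22050693 (cortex) reads assigned to genes, a depth ratio of 2.33. Levels are given as CPM, the reads of a gene per 1000000 gene-assigned reads of its library. A single read equalled 0.0194 CPM in SVZ and 0.0454 CPM in cortex. Differences are log2 ratios of SVZ CPM to cortex CPM, so that positive values are higher in SVZ. Brackets after a ratio hold its exact (Clopper-Pearson) 95% interval. These intervals cover the counting error of reads only. PCR copies of a molecule count as separate reads, so the intervals are too narrow for molecules. The spread between embryos and dissections is not in them. The area labels were set beside marker genes, whose lists were chosen with earlier results of these data known. All 8 apical progenitor genes and all 6 intermediate progenitor genes examined were past 2-fold towards SVZ, and all 8 neuronal genes were higher in cortex, 6 of them at least 2-fold.

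Of the 10 genes, 4 stood 2-fold or more towards SVZ (Rxra, Rxrg, Thrb and Crabp2), 4 towards cortex (Rara, Rarg, Thra and Crabp1), and Rarb and Rxrb lay within 2-fold. Over all genes for which a ratio could be formed, 23.0% were 2-fold higher in SVZ and 18.2% in cortex. The interval of Crabp1, with 13 reads in each library, reached past 0, so its place among the 4 cortex genes rests on its CPM ratio alone. The TR pair was divided, with Thra higher in cortex and Thrb higher in SVZ. When the mean of the 2 libraries had to reach 1 CPM, 8 of the 10 genes passed and Rarg and Crabp1 did not. The counts were then 4 (SVZ) and 2 (cortex), against a background of 20.0% and 15.6% of 12738 genes. Rara, Rxra, Rxrg and Crabp2 passed that minimum through their higher library alone, each being under 1 CPM in the other, so their difference is partly set by the minimum. Low genes differed more often in general. Among 3711 genes with a mean of 1 to 10 CPM, where 6 of the members lay, 32.5% were 2-fold higher in SVZ and 23.7% in cortex, a class looked at after the data were seen. With no minimum, the median log2 ratio was -0.28 over the 10 genes and 0.12 over 15847 genes, and with the minimum it was 1.26 over the 8 members that passed and 0.11 over 12738 genes. The sign of the members' median thus turned with the minimum.

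**Figure D1:**
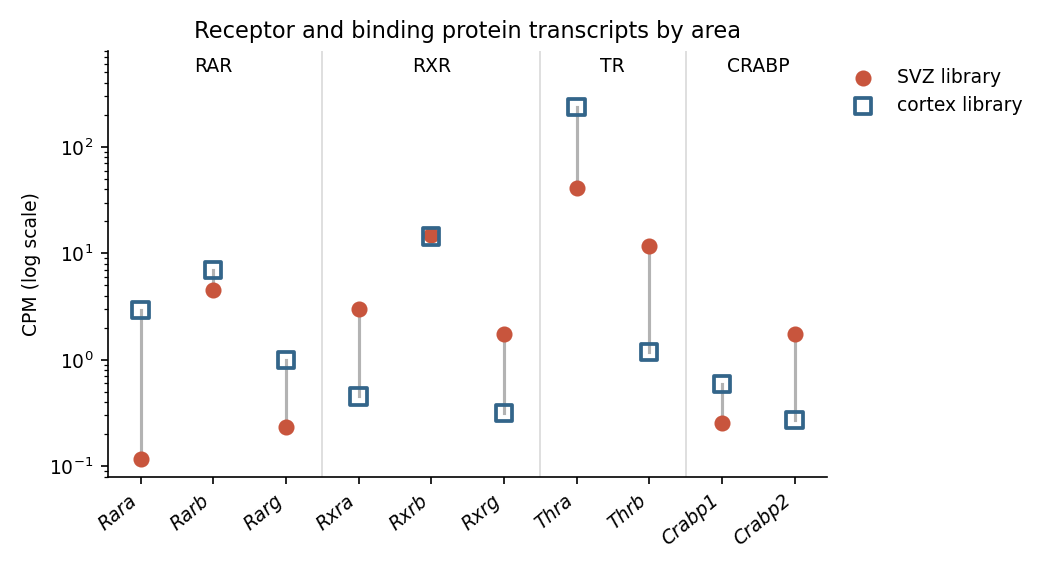
Level of each receptor and binding protein gene in CPM on a log scale, with a filled circle for the SVZ library and an open square for the cortex library, 1 library each. Thra stands above the other members in both libraries (40.7 and 238 CPM), the symbols of Rxrb coincide, and those of Thra and Thrb lie in opposite order.

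**Figure D2:**
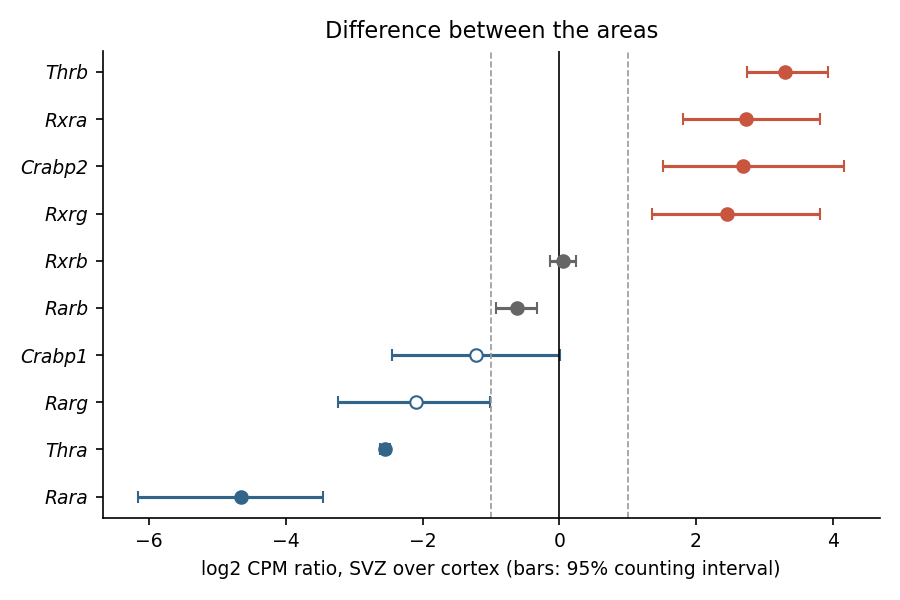
Ratio of SVZ to cortex CPM (log2) for each member, ordered by ratio, with the exact 95% counting interval as bars and dashed lines at 2-fold. Thrb, Rxra, Crabp2 and Rxrg have whole intervals past 2-fold on the SVZ side, Rara, Thra and Rarg on the cortex side, and open circles mark the 2 genes with a mean under 1 CPM.

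Other cells in the cut areas differed between the libraries as well, and these values stand beside each result that follows. Summed over 6 choroid plexus genes, the level was 249 CPM in SVZ and 2.09 CPM in cortex, of which Ttr alone gave 240 and 0.726 CPM. The 3 of them that passed 1 CPM, among them Ttr, were all past 2-fold towards SVZ, Folr1, Otx2 and Clic6 had 0 reads in cortex, and Kl had 0 reads in both. All 6 microglial genes were past 2-fold towards SVZ (sums of 50.3 and 5.53 CPM). Of 13 genes of the ganglionic eminence and striatum, the ventral forebrain areas beside the cortex, 9 passed 1 CPM. Of these, 3 were 2-fold higher in SVZ and 1 in cortex, with sums of 77.0 and 53.0 CPM. The SVZ side was led by Gsx2, a progenitor factor of the ganglionic eminence (11.6 and 0.635 CPM). The striatal receptor gene Drd1 had 0 SVZ reads and 380 cortex reads, while Isl1, Six3, Ikzf1 and Tac1 had 0 in cortex. Blood vessel genes (8 of 8 passed, 1 of them 2-fold higher in cortex) summed to 145 and 111 CPM, and meningeal genes (5 of 8 passed, 1 higher in SVZ and 2 in cortex) to 7.68 and 9.43 CPM. Col1a1 had 0 reads in SVZ and Foxd1 in both. Of 6 erythroid genes, 4 globin genes (Hba-a1, Hba-a2, Hbb-bs and Hbb-bt) had 0 reads in both libraries, and Alas2 alone passed (14.8 and 7.48 CPM). Reads that map to several places or lie in more than 1 gene were not counted. The 0 reads therefore do not show that globin transcripts were absent, and whether such reads were lost was not tested. The part of these cells in the members' values was not tested. In such bulk libraries, fewer cells of a type and less RNA per cell cannot be told apart.

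The thyroid hormone receptors showed the clearest exchange. Thra (GRCm38 chromosome 11, 98740638 to 98769006, plus strand), the receptor gene found most widely in the nervous system, was read 2092 times in SVZ and 5239 times in cortex. That was 40.7 and 238 CPM, a log2 ratio of -2.55 (-2.62 to -2.47), or 5.84-fold higher in cortex. Of the genes tested, 4.73% had a ratio as low or lower. Thrb (chromosome 14, 17660261 to 18038090, plus strand), the second receptor gene, was read 598 and 26 times (11.6 and 1.18 CPM), a difference of 3.30 (2.74 to 3.93) on the log2 scale, or 9.86-fold in the other direction. Thra was nevertheless the higher gene of the pair in both areas. Per kilobase of annotated exon, its level was 5.61 times that of Thrb in SVZ and 323 times in cortex. The ratio of Thra to Thrb was thus 57.6 times higher in the cortex library (exact 95% interval 38.7 to 89.2, counting error only), a change that does not depend on gene length or on the library totals.

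Thra is spliced into a form that binds hormone and a form that does not, and the gene counts hold both together. The end of the second form lies over Nr1d1, a gene for a circadian repressor (REV-ERBalpha) read from the opposite strand. In GENCODE M21 they share 263 bases of exon, 5.70% of the exon length of Thra. A read in the shared part was left out of the unstranded count of both genes. When each strand was counted apart and the columns were added, Thra gained 108 reads in SVZ and 348 in cortex, and Nr1d1 gained the same numbers. These reads cannot be given to either gene, and adding them left the log2 ratio of Thra at -2.57. For Nr1d1 itself, 525 and 1325 reads gave -2.56 (-2.71 to -2.41).

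Thra and Rara lie 158.8 kb apart on chromosome 11 with Nr1d1 between them and Top2a, a topoisomerase of dividing cells next in line after Rara. Chromosome 14 holds a related cluster of Top2b, Rarb, Thrb and Nr1d2, in which Rarb and Thrb are 841.1 kb apart. Top2a and Top2b were named here for their position. The genes named on chromosomes 11 and 14 did not share 1 pattern. On chromosome 11, the log2 ratios were -2.55 for Thra, -2.56 for Nr1d1 and -4.66 for Rara, but 6.33 (6.09 to 6.58) for Top2a. On chromosome 14, Top2b had a log2 ratio of -0.21 (-0.25 to -0.18), Rarb of -0.62, Thrb of 3.30 and Nr1d2 of 0.27 (0.11 to 0.42).

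The 3 retinoic acid receptors all had the higher CPM in the cortex library. Their summed level was 4.88 CPM in SVZ and 10.9 CPM in cortex, a log2 ratio of -1.16 (-1.42 to -0.90). Rara (chromosome 11, 98927818 to 98974942, plus strand), in many tissues the most widely expressed RAR, had 6 reads in SVZ and 65 in cortex (0.117 and 2.95 CPM). Its log2 ratio of -4.66 (-6.16 to -3.46) was the largest in size among the 10 genes, but it rests on these few reads. With a pseudocount of 1 CPM it was -1.82, smaller than those of Thra (-2.52) and Thrb (2.53). Rarg (chromosome 15, 102234938 to 102257517, minus strand), better known from skin and cartilage, was barely detected, with 12 and 22 reads (0.233 and 0.998 CPM). Its log2 ratio was -2.10 (-3.24 to -1.02), and with a pseudocount of 1 CPM it was -0.70.

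Rarb (chromosome 14, 16430839 to 16819156, minus strand) carried most RAR reads in both areas. Its reads numbered 233 in SVZ and 154 in cortex, at 4.53 and 6.98 CPM. The log2 ratio of -0.62 (-0.92 to -0.32) lay within 2-fold and off 0 by its counting interval. Rarb made up 91.3% of the RAR level per kilobase in SVZ and 59.3% in cortex, where Rara held 30.2%. The ratio of Rara to Rarb was 16.4 times higher in the cortex library (exact interval 6.87 to 47.2). In GENCODE M21, Rarb shares 1793 bases of exon with Top2b on the other strand, 34.1% of its exon length. Adding the strands moved Rarb by 3 reads in SVZ and 1 in cortex, and its log2 ratio was again -0.62.

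Rarb is itself a classical target of retinoic acid, and the element known for this could be read in the 1 promoter found for it. RefSeq promoters (GRCm38.p6, 250 bases before to 50 after each start site) were found for 8 of the 10 members, 16 promoters in all. They were searched on both strands for a direct repeat of the half-site AGGTCA, with A or G allowed at the first letter and G or T at the third, and with 1, 2, 4 or 5 bases between the copies. Of 32851 promoters, 0.664% held such a repeat with any of these spacings and 0.0974% with the spacing of 5. Among the 16 member promoters only that of Rarb held one, with the spacing of 5, at bases -53 to -37 from the start site. This promoter (16575427 to 16575726) lies inside the annotated span of Rarb, whose 5' end is at 16819156. A promoter at that end was not among those searched, and the gene counts hold transcripts from all start sites together. Cyp26a1, the gene of a retinoic acid degrading enzyme and another known target, held a repeat of the same spacing on the other strand. The single half-site, spelled AGGTCA on either strand, was far more common, in 16.3% of promoters. It was found in 1 promoter each of Rara, Rarg, Rxra, Rxrg and Thrb, and is shown for Thrb, the member highest in SVZ relative to cortex. The half-sites are in capitals.
Rarb (chr14:16575506-16575535, minus strand): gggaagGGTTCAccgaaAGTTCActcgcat
Cyp26a1 (chr19:37697770-37697799, plus strand): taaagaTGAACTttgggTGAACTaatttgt
Thrb (chr14:17660764-17660793, plus strand): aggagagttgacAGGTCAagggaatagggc
In GENCODE M21 the stretch of Rarb lies in an exon of Rarb, that of Cyp26a1 reaches its exon, and that of Thrb lies in no exon. A match is a run of letters and not a measured binding site. The data side by side were 4.53 and 6.98 CPM for Rarb, 11.6 and 1.18 CPM for Thrb, and 0 reads in both libraries for Cyp26a1.

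The retinoid X receptors, the shared partners of RAR and TR, had 1 even and 2 uneven members. Rxrb (chromosome 17, 34031812 to 34038399, plus strand) was read 772 times in SVZ and 318 times in cortex, at 15.0 and 14.4 CPM. This gave a log2 ratio of 0.06 (-0.13 to 0.25), which was -0.04 under TMM, upper-quartile and DESeq2 scaling. No difference was detectable in Rxrb at this depth, and its interval lies within 1.19-fold towards SVZ and 1.10-fold towards cortex. Rxra (chromosome 2, 27676440 to 27762957, plus strand), the main RXR of liver and skin, was read 155 times in SVZ and 10 times in cortex (3.01 and 0.454 CPM), giving 2.73 (1.81 to 3.82) on the log2 scale. Rxrg (chromosome 1, 167598384 to 167639623, plus strand), known from striatum and muscle, was read 90 and 7 times (1.75 and 0.317 CPM), giving 2.46 (1.36 to 3.82). Both were higher in SVZ, at low counts, and the mean of Rxrg (1.03 CPM) passed the minimum narrowly. The striatal and eminence genes differed between the libraries in the mixed way given above, and their part in the level of Rxrg was not tested.

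Rxrb supplied 74.2% of the RXR level per kilobase in SVZ and 94.3% in cortex. The ratio of Rxrb to Rxra was 6.38 times higher in the cortex library (3.32 to 13.7) and that of Rxrb to Rxrg 5.30 times higher (2.43 to 13.7). The ratio of Rxra to Rxrg changed by 0.829 (0.274 to 2.67), an interval that spans 1 and is wide. Since Rxrb was even and the most counted, the RXR sum differed little, with 19.8 and 15.2 CPM and a log2 ratio of 0.38 (0.20 to 0.56).

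**Figure D3:**
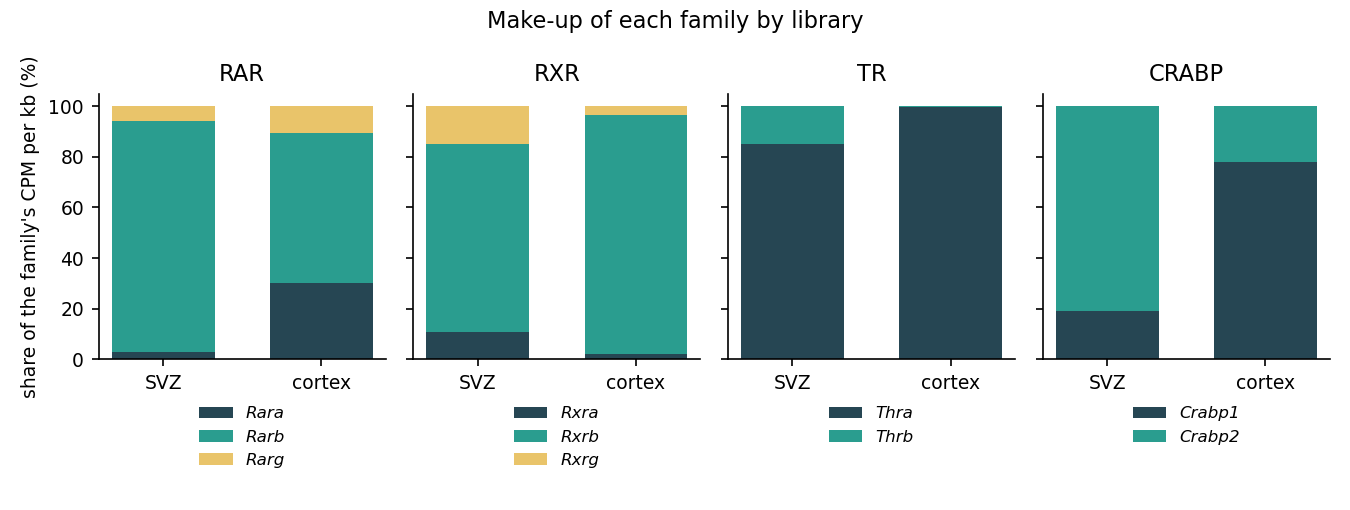
Share of each gene in the level of its family, in percent of the summed CPM per kilobase of annotated exon, for the SVZ library and the cortex library. Rarb, Rxrb and Thra are the largest parts in both libraries, whereas the CRABP bar passes from 80.8% Crabp2 in SVZ to 78.1% Crabp1 in cortex. The cortex CRABP bar rests on 13 reads of Crabp1 and 6 of Crabp2. Their counting intervals per kilobase overlap (0.391 to 1.26 and 0.0755 to 0.448 CPM per kb).

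The cellular retinoic acid binding proteins were at low counts. Crabp2 (chromosome 3, 87948666 to 87953376, plus strand) had 90 reads in SVZ and 6 in cortex, or 1.75 and 0.272 CPM, and a log2 ratio of 2.68 (1.51 to 4.17). Its mean of 1.01 CPM was just over the minimum, and it fell under it (0.986 to 0.988 CPM) with TMM, upper-quartile or DESeq2 scaling or with stranded counts. Crabp1 (chromosome 9, 54764748 to 54773110, plus strand) had 13 reads in each library, or 0.253 and 0.590 CPM. The interval of its log2 ratio, -1.22, ran from -2.45 to 0.01, so that a difference in Crabp1 alone was not detectable at this depth. Taken as a pair they differed, since the ratio of Crabp1 to Crabp2 was 15.0 times higher in the cortex library (4.28 to 55.4).

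Ordered by level per kilobase, Thra and Rxrb were the highest members in both libraries. In SVZ, Thra stood at 8.81 CPM per kb and Rxrb at 3.78, followed by Thrb (1.57), Crabp2 (1.32), Rarb (0.860), Rxrg (0.762), Rxra (0.552) and Crabp1 (0.315), with Rarg (0.0548) and Rara (0.0267) last. Neighbours whose counting intervals overlapped were Thrb and Crabp2, Rarb and Rxrg, Rxrg and Rxra, Rxra and Crabp1, and Rarg and Rara. In cortex, Thra stood at 51.5 CPM per kb, above Rxrb (3.63), Rarb (1.33), Crabp1 (0.735), Rara (0.675), Rarg (0.234), Crabp2 (0.206), Thrb (0.159), Rxrg (0.138) and Rxra (0.0830). There the intervals overlapped between Rarb and Crabp1, between Crabp1 and Rara, and between each neighbour pair from Rarg to Rxra. Thrb thus stood at rank 3 of the 10 in SVZ and 8 in cortex, and Rara at 10 and 5. With the longest transcript as the length, Thrb and Crabp2 changed places in SVZ and Crabp1 and Rara in cortex.

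**Figure D4:**
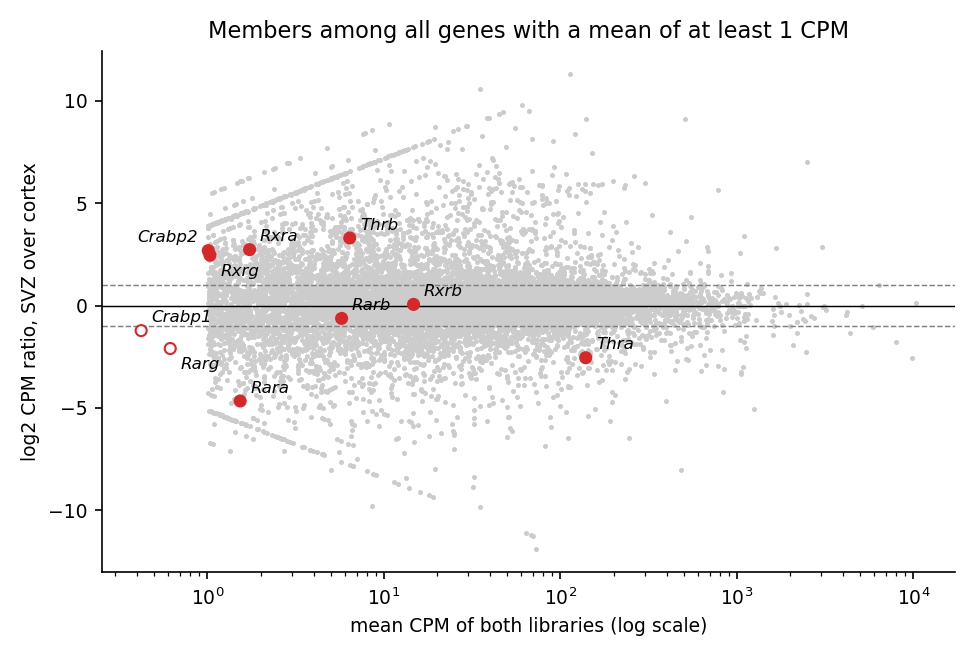
Ratio of SVZ to cortex CPM (log2) against the mean CPM of both libraries on a log scale for the 12738 genes that passed the minimum mean (grey), with the 10 members in red and dashed lines at 2-fold. Open circles are members under 1 CPM. Thra is the only member above 100 CPM, and 6 of the 8 filled circles lie past 2-fold.

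The cofactors that the receptors share were counted next, against 64.4% of all genes tested that lay within 2-fold. Of 8 genes of corepressors and their complexes, all above 1 CPM, 1 was 2-fold higher in cortex and 7 lay within 2-fold, with a median log2 ratio of 0.18. Ncor1, the main corepressor of unliganded TR and RAR, was at 229 CPM in SVZ and 248 in cortex, and Hdac3, its deacetylase, at 191 and 150. The exception was Nrip1, a corepressor that binds liganded receptors and is induced by retinoic acid, with 9.72 and 82.4 CPM and a log2 ratio of -3.08 (-3.23 to -2.94). Of 9 coactivator genes, 7 lay within 2-fold, Ncoa3 was higher in cortex (log2 ratio -1.23, -1.41 to -1.06) and Kat2b in SVZ (1.23, 0.99 to 1.47). Their median was -0.17.

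Of 12 genes for the uptake of retinoids and the synthesis of retinoic acid, 7 had reads and 5 had 0 reads in both libraries, among them the 3 retinaldehyde dehydrogenases Aldh1a1, Aldh1a2 and Aldh1a3, which make retinoic acid. At these depths, 0 reads were taken to leave room for at most 3, equal to 0.0583 CPM in SVZ and 0.136 CPM in cortex. Of the 5 that passed 1 CPM, 2 were 2-fold higher in SVZ and 3 lay within 2-fold, against 20.0% and 64.4% of all genes tested. The median log2 ratio was 0.02. The larger difference was that of Dhrs3, which turns retinaldehyde back into retinol (78.1 and 7.71 CPM, log2 ratio 3.34, 3.12 to 3.57). Rdh10, the enzyme for the opposite step, had 4.39 and 7.03 CPM and a log2 ratio of -0.68 (-0.98 to -0.37). Stra6, the retinol uptake receptor, had 63 reads in SVZ and 0 in cortex, with a mean under 1 CPM, while the choroid plexus genes, which move the same way, had the levels given above. None of the 3 Cyp26 genes, which break retinoic acid down, passed 1 CPM, with 8 reads of Cyp26b1 in SVZ as their only reads.

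Of 14 known targets of retinoic acid, 7 passed 1 CPM. Of these, 5 were 2-fold higher in SVZ and 1 in cortex, against 20.0% and 15.6% of all genes tested. The median log2 ratio was 2.53. Rarb and Crabp2 are members of this list. Among the other 5, 4 were higher in SVZ and 1 in cortex, with a median of 2.53 as well. They included Meis1 (log2 ratio 5.79, 5.08 to 6.60) and Meis2 (2.06, 2.00 to 2.11), homeobox factors with many other inputs, with Dhrs3 and, on the cortex side, Nrip1. Meis1 and Crabp2 passed the minimum through the SVZ library alone, while Tgm2 had 38 and 3 reads and did not pass. Apical progenitor marker genes moved the same way as the SVZ side (8 of 8, median log2 ratio 4.09, sums of 6529 and 130 CPM), and their part in it was not tested.

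For thyroid hormone, the transport and activating genes were divided. Of the 8 that passed, 3 were 2-fold higher in SVZ and 3 in cortex (median log2 ratio -0.02). The shares over all genes tested were 20.0% in SVZ and 15.6% in cortex. Dio2, Ttr, Crym and Slc16a10 passed the minimum through their higher library alone, so their difference is partly set by the minimum. Slco1c1, a carrier of thyroxine, was at 115 CPM in SVZ and 9.07 in cortex (3.67, 3.47 to 3.88). Dio2, the deiodinase that makes the active hormone, had 209 reads in SVZ and 0 in cortex. With 3 reads put in place of 0 this was 29.9-fold (log2 ratio 4.90, interval end nearer to 0 at 4.59). Ttr, which carries thyroxine and retinol-binding protein and marks the choroid plexus, made up the third. On the cortex side were Crym, which binds the hormone in the cytosol (4 and 307 reads, log2 ratio -7.48, -9.37 to -6.11), and the carriers Slc7a8 (-1.91, -2.39 to -1.44) and Slc16a10 (-1.63, -2.31 to -0.95). Dio1 and Dio3 had 0 reads in both.

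Of 12 known targets of thyroid hormone, 8 passed 1 CPM. Of these, 5 were 2-fold higher in cortex and 2 in SVZ, against 15.6% and 20.0% of all genes tested. The median log2 ratio was -1.38. Without Thrb, a member of the list, there were 5 in cortex and 1 in SVZ of 7, with a median of -1.63. The cortex side held Camk4, a kinase of neurons (-2.30, -2.49 to -2.12), Hr, a corepressor (-2.64, -3.37 to -1.96), Me1 (-1.83, -2.04 to -1.63), Mbp (-1.63, -2.04 to -1.23) and Klf9, a factor of neuronal maturation (-1.14, -1.52 to -0.76). Hr passed the minimum through the cortex library alone (0.486 CPM in SVZ). The SVZ side held Thrsp (9.16 and 1.04 CPM, 3.13, 2.53 to 3.81). Neuronal marker genes moved the same way as the cortex side, with sums of 2187 and 8042 CPM, and their part in it was not tested.

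Finally, the members were set beside the other 41 nuclear receptor genes. Of these, 13 had 0 reads in both libraries and 20 passed 1 CPM. Among the 20, 7 were 2-fold higher in SVZ and 5 in cortex, against 20.0% and 15.6% of all genes tested. Their median log2 ratio was 0.25. The SVZ side was led by Nr2e1, the progenitor factor TLX (133 and 0.181 CPM, 9.52, 8.16 to 11.40), the glucocorticoid receptor Nr3c1 (3.26, 2.95 to 3.58), Ppara (2.60, 1.89 to 3.41) and Nr2f1 (1.57, 1.47 to 1.67). On the cortex side, Nr4a3 had 0 SVZ reads and 704 cortex reads. With 3 reads put in place of 0 this was 547-fold (log2 ratio -9.10, interval end nearer to 0 at -8.79). Rorb (-3.13, -3.20 to -3.06), Nr1d1 and Nr4a2 (-2.49, -2.69 to -2.28) followed. Of the genes named, Nr2e1, Ppara and Nr4a3 passed the minimum through their higher library alone. Ppara, Nr1h2 and Nr4a2 are further partners of RXR. Nr1h2 lay within 2-fold (0.53, 0.42 to 0.64), as Rxrb did.

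**Figure D5:**
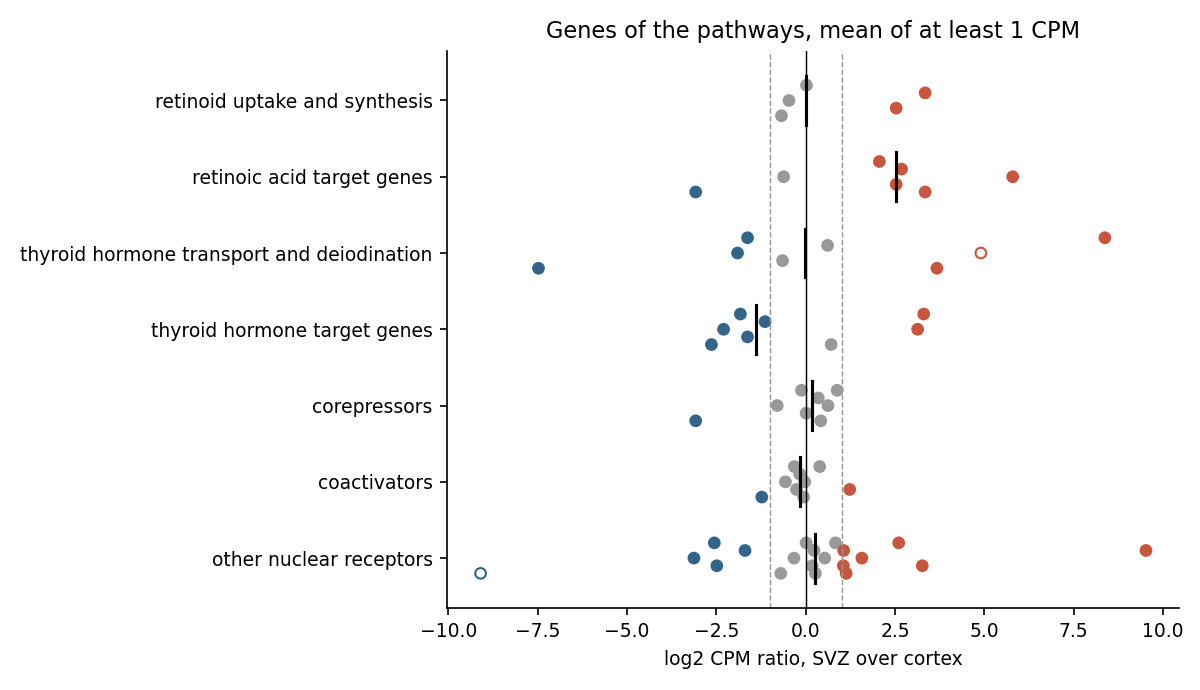
Ratio of SVZ to cortex CPM (log2) for each gene that passed the minimum mean, by list, with the list median as a black bar and dashed lines at 2-fold. Red is at least 2-fold higher in SVZ, blue in cortex and grey within 2-fold, and open circles are bounds where the lower library had 0 reads. Of the corepressors and coactivators, 14 lie between the dashed lines and 3 outside them, retinoic acid targets mostly right of 1 and thyroid hormone targets mostly left of -1.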

How the data were processed

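LCM and bulk RNA-seq gave 1 library each for SVZ and cortex. Per the study's methods and processing notes, the authors trimmed adapters with cutadapt 4.1 and mapped read 1 to mm10 (Illumina iGenomes, equal to GRCm38) with STAR 2.7.9a. For every gene the deposited files give raw counts, once ignoring strand and once per strand. STAR leaves out reads that map to several places or lie in more than 1 gene. Removal of duplicates is not given in the sources used here. The authors' table of their own comparison (counts, CPM, ratio and log10 ratio) was not used.

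Unstranded counts were scaled to CPM on gene-assigned totals, without the 4 summary lines (41.0% of all reads in SVZ and 40.9% in cortex). No test was possible with 1 library per area. Where a library had 0 reads, 3 were put in its place and the ratio taken as an approximate bound. With 3 or fewer in both no ratio was formed. Genes were called at 2-fold with a mean of at least 1 CPM. Genes of the lists under 1 CPM in 1 library passed this minimum through the other library alone, as some members did. Members and lists were chosen with earlier results of these data known. Genes were named by a rule: the members, genes that share exons with them, and list genes at least 2-fold apart, up to 6 per list and direction, ordered by the interval end nearer to 0, with others named as such or for their role or 0 reads. Some genes of the lists enter the counts but are not reported here by name. Exon lengths and positions came from GENCODE M21, not the iGenomes annotation that was counted on, so levels per kilobase, shares and ranks rest on lengths that may differ from it, and intervals for ratios of gene pairs are conditional odds-ratio intervals. Alternatives were a pseudocount of 1 CPM, other minimums and folds, stranded counts, thinning, library totals that omit the 10 largest genes, size factors of DESeq2 1.42.0, and the TMM and upper-quartile factors of edgeR 4.0.16. The ratios, their 2-fold calls and their counting intervals were tried on simulated Poisson counts, which hold counting error only. The other procedures were not simulated. Calculations ran in Python 3.11.15 with pandas 2.3.3, scipy 1.17.1 and numpy 2.4.6, figures in matplotlib 3.10.9, and scaling factors in R 4.3.3.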

Additional observations from a re-analysis of the deposited data

Results flagged for a closer look

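Pcp2, on the list of thyroid hormone targets, was counted 0 times in SVZ and 1 time in cortex when strand was ignored, but 162 and 72 reads when the stranded columns were added, above the 3 reads that a count of 0 allows. From which gene these reads came was not tested. No group had enough libraries for a search for outlying samples.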

How the results depend on the processing

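No paired analysis was possible because SVZ and cortex have 1 library each. Leaving out a replicate could therefore not be tried either. The log2 ratios of the members kept their sign under all alternatives, except that Rxrb went from 0.06 to -0.04 under TMM, upper-quartile and DESeq2 scaling. These scalings moved the median of all genes by up to -0.102 (upper-quartile) and Thra to -2.64, -2.65 and -2.64 (TMM, upper-quartile, DESeq2). A pseudocount of 1 CPM, which draws low genes towards 0, gave -1.82 for Rara, -0.70 for Rarg, 1.47 for Rxra, 1.06 for Rxrg, 2.53 for Thrb and 1.11 for Crabp2. Members 2-fold higher in SVZ and in cortex numbered 4 and 2. They were 0 and 1 at a minimum mean of 10 CPM, which only Rxrb and Thra passed, and 4 and 4 with no minimum, while the other alternatives gave 3 or 4 and 2. The member lost was Crabp2 under TMM, upper-quartile and DESeq2 scaling and stranded counts, and Rxrg (0.998 CPM) under thinning. Of all genes, 2547 and 1992 were 2-fold higher in SVZ and in cortex, 1341 and 1113 at the minimum of 10 CPM, and 1300 and 893 at 4-fold. With the longest transcript as the length, 2 members changed rank in each library. Under thinning of the SVZ library, Rara had 0 SVZ reads and its ratio was a bound.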
